A study of Mus musculus with 12 samples.

Results

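The 10 genes described here are members of the NRF2 antioxidant pathway: Nfe2l2, Keap1, Nqo1, Hmox1, Gclc, Gclm, Txnrd1, Srxn1, Slc7a11 and Prdx1. They were chosen by name as genes of the pathway, with earlier results of these data known. They are 10 of the 33246 genes listed in the count table, and all 10 were among the 14542 genes with enough counts to be tested. RNA was sequenced from primary mouse ear fibroblasts kept for 48 h on alginate hydrogels, with 3 samples in each of 4 groups: 2-kPa elastic, 20-kPa elastic, 2-kPa viscoelastic and 20-kPa viscoelastic gels. The design asks what stress relaxation does to transcript levels on soft and on stiff gels. The cells came from mouse ears and were used at passage 2. The study's methods give 1-month-old C57BL/6 mice of both sexes and Tau-EGFP reporter mice, without an age, as sources. The labels do not say which were sequenced. All gels carried RGD peptides for adhesion. The elastic gels were crosslinked covalently with adipic acid dihydrazide and the viscoelastic gels, which relax slowly, ionically with calcium, so relaxation and crosslinker cannot be told apart. The labels name replicates without saying whether they came from separate animals or cultures, and the p-values measure only the spread between these samples.

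NRF2, the protein of Nfe2l2, is a transcription factor that KEAP1 holds in the cytoplasm and directs to degradation by the proteasome. Oxidants and electrophiles modify KEAP1, after which NRF2 accumulates, pairs with small MAF proteins and binds antioxidant response elements near genes that make glutathione, reduce thioredoxin and detoxify quinones and heme. Because this control acts largely on the protein, the level of Nfe2l2 mRNA is not a measure of NRF2 activity.

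The letters TGACNNNGC, a short form of the antioxidant response element, were searched on both strands of RefSeq promoter windows (GRCm38.p6, the mm10 build) that reach from 250 bases before to 50 bases after the start of a gene. Windows were found for 8 of the 10 genes, all but Hmox1 and Gclc. The letters were present in a window of 5 genes (Nfe2l2, Gclm, Txnrd1, Srxn1 and Prdx1) and not in those of Keap1, Nqo1 and Slc7a11. Sequence outside the windows was not searched, so a window without the letters does not show that a gene lacks the element. Of all genes with a window, 14.0% held them. The stretches around the matches of 4 genes are given because these genes are among those that differed between gels. They are written 5′ to 3′ on the strand of the gene, with the matched letters in capitals. For Gclm, Txnrd1 and Prdx1 the match reads on the opposite strand. The stretch of Nfe2l2 (chr2:75704865-75704913, minus strand) lies in an exon of the neighbouring gene E030042O20Rik. The others are at chr3:122245393-122245461 for Gclm, chr10:82859084-82859152 for Txnrd1, in 1 of its 3 windows, and chr4:116685436-116685504 for Prdx1, all on the plus strand. The match in Prdx1 also overlaps the AP-1 letters TGANTCA, so its letters are shared by both motifs.
Nfe2l2: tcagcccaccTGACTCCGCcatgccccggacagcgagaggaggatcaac
Gclm: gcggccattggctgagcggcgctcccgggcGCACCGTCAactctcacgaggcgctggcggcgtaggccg
Txnrd1: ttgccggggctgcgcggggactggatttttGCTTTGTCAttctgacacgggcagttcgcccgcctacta
Prdx1: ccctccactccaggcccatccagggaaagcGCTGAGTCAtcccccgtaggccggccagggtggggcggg

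Depth ran from 36626221 to 43612804 gene counts in a sample. Values are CPM, counts scaled to the library size, after edgeR's TMM scaling, whose factors lay between 0.968 and 1.03. Those of cell type markers, here and below, are CPM without the TMM scaling. All 10 fibroblast markers examined were present in each sample, with summed levels of 23614 to 29937 CPM. Markers of keratinocytes, leukocytes, endothelium, melanocytes and skeletal muscle summed to at most 7.03 CPM for any of these types in any sample. The 4 chondrocyte markers were far above that: Col2a1 lay between 2369 and 3544 CPM, Acan between 869 and 1558, Sox9 between 359 and 535 and Matn3 between 41.9 and 87.8. Their sum was 4139 to 5285 CPM on 2-kPa elastic gels, 3797 to 3930 on 20-kPa elastic gels, 4063 to 5107 on 2-kPa viscoelastic gels and 3925 to 5222 on 20-kPa viscoelastic gels. S100b, which Schwann cells and chondrocytes both express, lay between 70.5 and 71.0, 40.2 and 43.6, 49.3 and 59.9, and 69.1 and 90.5 CPM in the same order, while the Schwann cell factor Sox10 was at most 0.519 CPM in any sample. In bulk RNA fewer cells of a type cannot be told apart from less RNA per cell.

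Per kilobase of exon, the genes spanned a wide range of levels. Prdx1, a peroxiredoxin that reduces hydrogen peroxide (chr4:116685544-116700822), averaged 136 CPM per kilobase over the groups, Nqo1, a quinone reductase (chr8:107388225-107403206), 133, and Hmox1, the inducible heme oxygenase (chr8:75093621-75100589), 125. These 3 genes ranked between the 98.4th and the 98.6th percentile of the 13684 tested genes with a known length. Nfe2l2 itself (chr2:75675513-75704641) averaged 51.1 CPM per kilobase. Txnrd1, the cytosolic thioredoxin reductase (chr10:82833951-82897712), averaged 25.4 and Srxn1, the sulfiredoxin that repairs overoxidized peroxiredoxins (chr2:152105516-152111376), 18.3. Gclm and Gclc, the modifier and catalytic subunits of the enzyme that limits glutathione synthesis (chr3:122245557-122270732 and chr9:77754535-77794485), averaged 11.5 and 9.73, and Keap1 (chr9:21229730-21239361) 9.38. Slc7a11, the cystine transporter that supplies cysteine for glutathione (chr3:49892526-50443614), averaged only 0.180 CPM per kilobase, with 60 to 192 reads in a sample. Coordinates are those of a GENCODE annotation of mm10. Keap1 overlaps the antisense gene Gm16754, and Gclm overlaps Gm17494 on the other strand and the pseudogene Gm6061, so that their counts are less certain without a stated strand setting.

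**Figure D1:**
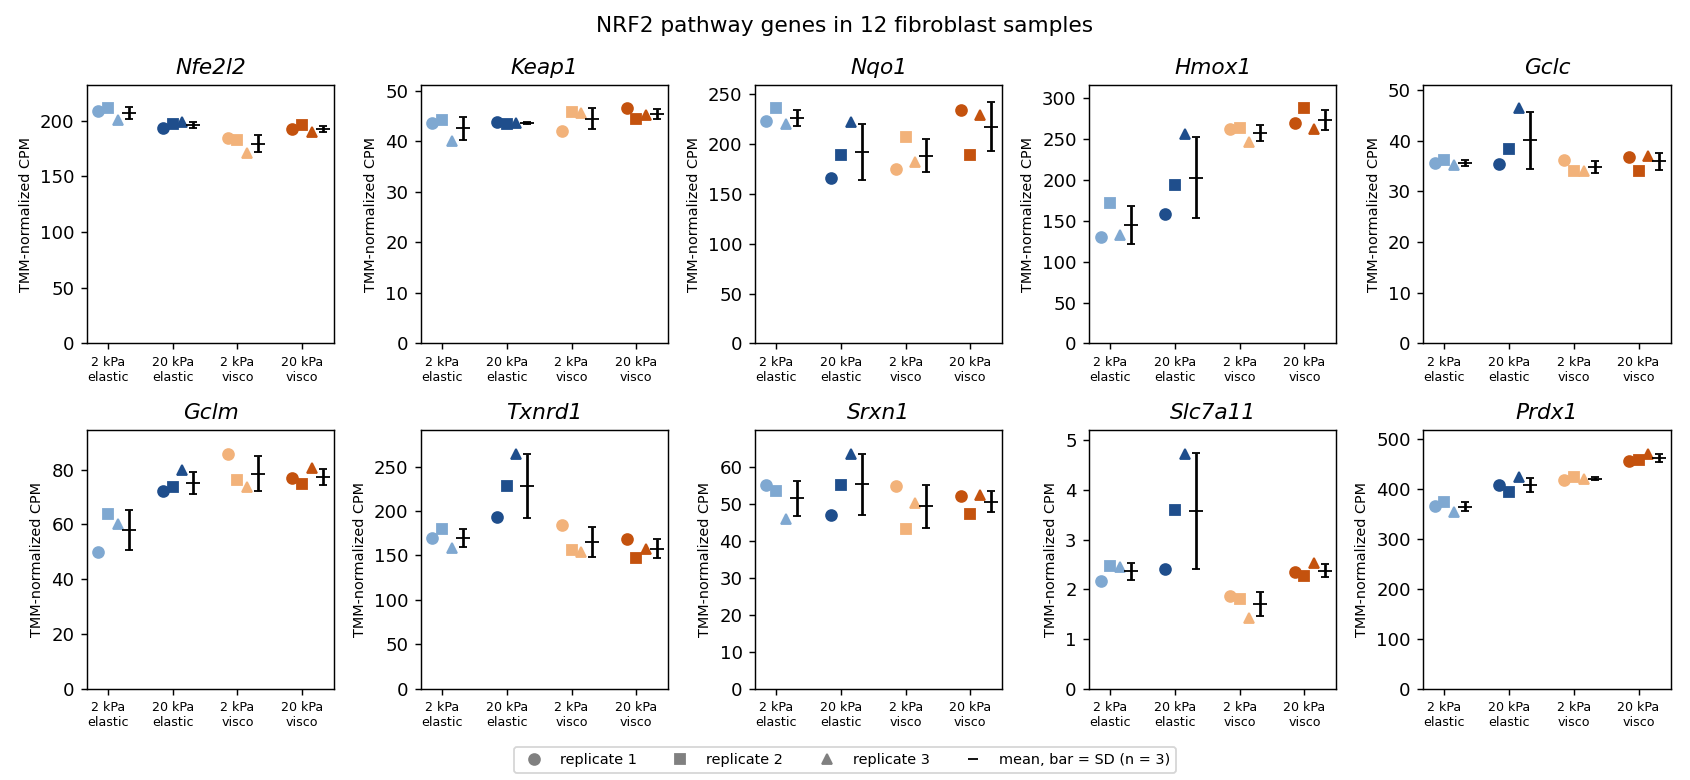
TMM-normalized CPM (vertical axes, each from 0) of the 10 genes in each sample of the 4 gel groups (horizontal axes), with the mean and SD of the 3 samples as black bars. Hmox1 rises from 129.8 to 171 CPM on 2-kPa elastic gels to 246 CPM and above on both viscoelastic gels, and the 20-kPa elastic samples of Txnrd1 lie above those of the other groups.

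On soft gels, Hmox1, Gclm and Prdx1 rose and Nfe2l2 fell on viscoelastic compared with elastic substrates. Thus 4 of the 10 genes passed edgeR's quasi-likelihood test at an adjusted p under 0.05, where 19.9% of all tested genes did. The median log2 fold change of the 10 genes was −0.038, close to that of all tested genes, −7.5e-05, as the genes moved in both directions. In 6 of the 10 genes the samples of the groups did not overlap, against 36.3% of all tested genes.

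Hmox1 was measured at 129.8, 171 and 133 CPM on 2-kPa elastic gels and at 263, 263 and 246 CPM on 2-kPa viscoelastic gels. Every viscoelastic sample was above every elastic one. The log2 fold change was 0.83 ± 0.14 (SE, n = 3 per group), or 1.78-fold, with an adjusted p of 0.000906 in edgeR. Gclm was at 49.9, 64.0 and 60.3 CPM on elastic and at 85.9, 76.1 and 73.8 CPM on viscoelastic gels, again without overlap, a log2 fold change of 0.44 ± 0.084 (SE, edgeR adjusted p = 0.0026). The partner subunit Gclc had a log2 fold change of −0.034 with a 95% interval of −0.21 to 0.14, so the subunits were not called together. Prdx1 rose more modestly, from 365, 374 and 354 CPM to 417, 424 and 420.4 CPM, a log2 fold change of 0.21 ± 0.055 (SE, edgeR adjusted p = 0.0152). The viscoelastic samples of Prdx1 all lay above the elastic ones.

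Nfe2l2 was at 209, 211 and 201 CPM on 2-kPa elastic gels and at 185, 182 and 171 CPM on 2-kPa viscoelastic gels. All viscoelastic samples were thus lower, with a log2 fold change of −0.21 ± 0.052 (SE, edgeR adjusted p = 0.0125). Nqo1 was at 223, 236 and 220.4 CPM on elastic and 175, 207 and 182 CPM on viscoelastic gels. These groups did not overlap either, but the adjusted p of 0.0793 in edgeR did not pass. Slc7a11 had a log2 fold change of −0.47 with a 95% interval of −0.92 to −0.019 and did not pass (edgeR adjusted p = 0.131). The calls of Hmox1 and Gclm held in all 12 fits that each left out 1 sample. Those of Nfe2l2 and Prdx1 were both lost without 2-kPa elastic replicate 1, that of Nfe2l2 also without 2-kPa elastic replicate 2 or 2-kPa viscoelastic replicate 3, and that of Prdx1 also without 2-kPa elastic replicate 3. S100b was lower in each 2-kPa viscoelastic than in each 2-kPa elastic sample, and its part was not tested. The call of Nfe2l2 ended when only the 2 groups compared were fitted (edgeR adjusted p = 0.0641).

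On stiff gels the set of called genes was another one. Hmox1 and Prdx1 were higher and Txnrd1 and Slc7a11 lower on 20-kPa viscoelastic than on 20-kPa elastic gels, 4 of the 10 genes against 33.5% of all tested genes. The groups did not overlap in 4 of the 10 genes and in 49.9% of all tested genes, and the median log2 fold change was 0.0083, against 0.016 over all tested genes.

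Txnrd1 was at 193, 228 and 265 CPM on 20-kPa elastic gels and at 168, 147 and 158 CPM on 20-kPa viscoelastic gels. All viscoelastic samples were lower, and the log2 fold change was −0.54 ± 0.10 (SE, n = 3 per group), or 0.689 of the elastic level, with an adjusted p of 0.00123 in edgeR. Slc7a11 was at 2.40, 3.60 and 4.73 CPM on elastic and 2.34, 2.26 and 2.53 CPM on viscoelastic gels. Here the groups overlapped, since the lowest elastic sample lay within the viscoelastic range, and the log2 fold change was −0.59 ± 0.19 (SE, edgeR adjusted p = 0.0309). Hmox1 was at 159, 194 and 256 CPM on elastic and 269.8, 288 and 263 CPM on viscoelastic gels. The elastic samples were widely spread and the viscoelastic ones close together and all higher, with a log2 fold change of 0.43 ± 0.14 (SE, edgeR adjusted p = 0.0240). Prdx1 was at 407, 394 and 423 CPM on elastic and 456, 457 and 470.5 CPM on viscoelastic gels, all viscoelastic samples being higher, with a log2 fold change of 0.18 ± 0.054 (SE, edgeR adjusted p = 0.0215).

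The other 6 genes did not pass at this stiffness. Fibroblast marker sums were 23614 to 25570 CPM on 20-kPa elastic and 27390 to 29937 CPM on 20-kPa viscoelastic gels. S100b was also higher in each viscoelastic sample, and their part was not tested. Gclm, called on soft gels, had a log2 fold change of 0.042 with a 95% interval of −0.14 to 0.22, and Nfe2l2 one of −0.025 with an interval of −0.14 to 0.086. Of the 4 calls, that of Txnrd1 held in all 12 fits that each left out 1 sample. Without 20-kPa elastic replicate 1 the log2 fold change of Hmox1 was 0.26 (edgeR adjusted p = 0.116), and neither Hmox1 nor Prdx1 was called. Without 20-kPa elastic replicate 2 only Txnrd1 was called, without 20-kPa viscoelastic replicate 2 Txnrd1 and Prdx1, and without 20-kPa viscoelastic replicate 3 Hmox1 and Txnrd1. The call of Slc7a11 was lost without any 1 of 5 of the 6 samples compared, all but 20-kPa elastic replicate 1, and its log2 fold change without 20-kPa elastic replicate 3 was −0.34 (edgeR adjusted p = 0.192). It also ended when only the groups compared were fitted (edgeR adjusted p = 0.0607), and Prdx1 was not called when genes with any count at all were tested (edgeR adjusted p = 0.0757).

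Stiffness on elastic gels was tested next, with 14.0% of all tested genes called. Of the 10 genes, Hmox1, Gclm and Txnrd1 rose from 2 to 20 kPa and none fell. The median log2 fold change of the 10 genes was 0.17, against −0.0083 over all tested genes. Of the 10 values 8 were positive, while 51.8% of all tested genes had a negative value. This comparison shares its elastic samples with those described above. Txnrd1 was at 169.9, 179.7 and 159 CPM on 2-kPa elastic gels, below each of the 20-kPa elastic samples, and the log2 fold change was 0.43 ± 0.10 (SE, n = 3 per group, edgeR adjusted p = 0.0112). Gclm was at 72.1, 73.6 and 79.9 CPM on 20-kPa elastic gels, above every 2-kPa elastic sample, with a log2 fold change of 0.37 ± 0.084 (SE, edgeR adjusted p = 0.00908). Hmox1 had a log2 fold change of 0.49 ± 0.14 (SE, edgeR adjusted p = 0.0262), and its groups overlapped. Slc7a11 and Prdx1 had log2 fold changes of 0.60 and 0.16 and edgeR adjusted p-values of 0.0555 and 0.0592.

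The call of Gclm held in all 12 fits that each left out 1 sample, and those of Hmox1 and Txnrd1 did not. Without 20-kPa elastic replicate 3 the log2 fold change of Hmox1 was 0.29 (edgeR adjusted p = 0.143) and that of Txnrd1 0.31 (edgeR adjusted p = 0.0634). Hmox1 was not called without 2-kPa elastic replicate 1 either. Without 2-kPa elastic replicate 3 only Gclm was called, and without 20-kPa elastic replicate 1 there were 5 calls, Gclc and Slc7a11 being added. The chondrocyte marker sum and S100b, given above, were lower in each 20-kPa elastic than in each 2-kPa elastic sample, and their part in the result was not tested.

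On viscoelastic gels none of the 10 genes was called between 2 and 20 kPa by edgeR, or by DESeq2's Wald test. Of all tested genes, edgeR called 2.28%, and DESeq2 called 769 of 14542. Without adjustment, Slc7a11 and Prdx1 had p-values under 0.05 in edgeR (0.0374 and 0.0272), and their samples, like those of Nfe2l2, did not overlap between the groups. Of all 14542 tested genes, 2768 had such a p-value and 22.3% had groups that did not overlap. The number of all tested genes called was 331, and it was 9 without 20-kPa viscoelastic replicate 3, 36 without 20-kPa viscoelastic replicate 1, 127 without 2-kPa viscoelastic replicate 1, 38 with only the groups compared and 154 with the replicate block. The median log2 fold change of the 10 genes was 0.067, against 0.0079 over all tested genes. As on elastic gels, 8 of the 10 values were positive, and 48.1% of all tested genes had a negative value. Prdx1 had a log2 fold change of 0.13 with a 95% interval of 0.017 to 0.25, and Slc7a11 one of 0.48 with an interval of 0.032 to 0.93. For Hmox1, Gclm and Txnrd1, which were called on elastic gels, the values were 0.088 (−0.20 to 0.38), −0.022 (−0.20 to 0.16) and −0.064 (−0.28 to 0.15).

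**Figure D2:**
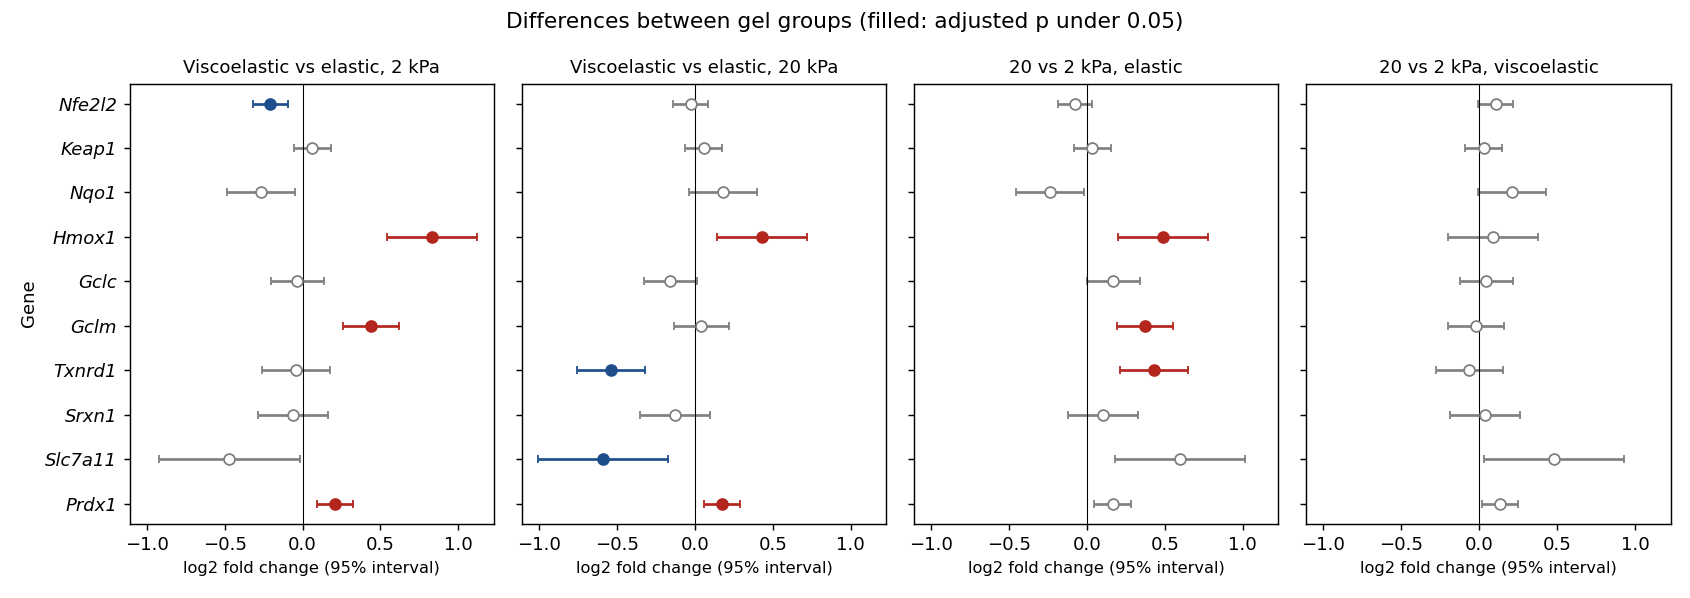
Log2 fold change (horizontal axis) of the 10 genes (vertical axis) in the 4 comparisons of gel groups, with 95% intervals from edgeR. Filled points passed an adjusted p under 0.05, red higher and blue lower. Filled points number 4, 4, 3 and 0 from left to right, and Hmox1 is filled in the first 3 panels.

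Averaged over both stiffnesses, 6 of the 10 genes passed for viscoelastic against elastic gels, where 40.0% of all tested genes did. Hmox1 (log2 fold change 0.63 ± 0.096 SE), Gclm (0.24 ± 0.059) and Prdx1 (0.19 ± 0.039) rose, with edgeR adjusted p-values of 0.000181, 0.00521 and 0.0013. Slc7a11 (−0.53 ± 0.14), Txnrd1 (−0.29 ± 0.072) and Nfe2l2 (−0.12 ± 0.037) fell, with edgeR adjusted p-values of 0.00907, 0.00526 and 0.0214. Taken singly, Hmox1 and Prdx1 were called at both stiffnesses, Gclm and Nfe2l2 at 2 kPa alone, and Txnrd1 and Slc7a11 at 20 kPa alone. In none of the 10 genes were all 6 viscoelastic samples on one side of all 6 elastic ones, which held for 12.4% of all tested genes. Hmox1 came close, with the 20-kPa elastic sample at 256 CPM above the viscoelastic sample at 246 CPM. The call of Nfe2l2 ended with total counts as the only scaling (edgeR adjusted p = 0.0923), with genes of any count tested (edgeR adjusted p = 0.0836), and without 2-kPa elastic replicate 2, 2-kPa viscoelastic replicate 3 or 20-kPa viscoelastic replicate 3. The other 5 calls held in each of their 17 alternatives.

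Whether the viscoelastic effect differed between the stiffnesses was tested as an interaction, the effect at 20 kPa minus that at 2 kPa, which 7.56% of all tested genes passed. Of the 10 genes only Txnrd1 passed, with a difference of −0.50 ± 0.14 on the log2 scale (SE, edgeR adjusted p = 0.0486). Its viscoelastic effect was −0.041 (−0.26 to 0.18) at 2 kPa and −0.54 (−0.75 to −0.32) at 20 kPa. Gclm and Nqo1 had differences of −0.40 and 0.44 with edgeR adjusted p-values of 0.0568 and 0.0762. The call of Txnrd1 held in 3 of the 12 fits that each left out 1 sample. Without 20-kPa elastic replicate 3 the difference was −0.38 (edgeR adjusted p = 0.113).

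With all 12 samples, the genes that were called in none of these pairs of groups were Keap1, Nqo1, Gclc and Srxn1. In the 12 fits that each left out 1 sample, Nqo1 was called in 2 for viscoelasticity at 2 kPa. It was called in 1 at 20 kPa and in 1 for stiffness on elastic gels. Gclc was called in 1 fit at 20 kPa and in 1 for stiffness on elastic gels. Keap1 was the steadiest of the 10, between 40.0 and 46.5 CPM in all 12 samples, and its highest group mean was 1.07 times its lowest. The same ratio was 1.12 for Srxn1, 1.15 for Gclc and Nfe2l2, and 1.20 for Nqo1. It was larger for Prdx1 (1.27), Gclm (1.35), Txnrd1 (1.45), Hmox1 (1.89) and Slc7a11 (2.11). The order of the groups differed between genes. Hmox1, Prdx1 and Keap1 had their highest mean on 20-kPa viscoelastic and their lowest on 2-kPa elastic gels, whereas Txnrd1, Srxn1, Slc7a11 and Gclc had their highest mean on 20-kPa elastic gels. For Prdx1, 20-kPa viscoelastic gels stood apart from 2-kPa viscoelastic gels and 20-kPa from 2-kPa elastic gels, while the middle groups overlapped. For Hmox1 each group overlapped with the next in order.

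Replicates of one group also differed along these genes. On 20-kPa elastic gels, replicate 3 was the highest of the 3 samples in 9 of the 10 genes and replicate 1 the lowest in 8, where each sample was in that place in 35.4% and 34.6% of all tested genes. The median deviation of the 10 genes from their group mean was 0.21 on the log2 scale in replicate 3 and −0.20 in replicate 1, and that of all tested genes was −0.0017 and −0.00023. On 2-kPa elastic gels, replicate 2 was highest in 9 of the 10 genes and in 33.2% of all tested genes. Its median deviation was smaller, 0.056, against 0.0042 over all tested genes. Mitochondrial genes took 2.22%, 1.77% and 2.48% of the counts in 20-kPa elastic replicates 1, 2 and 3. Ribosomal RNA took 2.57%, 2.44% and 1.68%. The part of these differences between libraries was not tested.

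**Figure D3:**
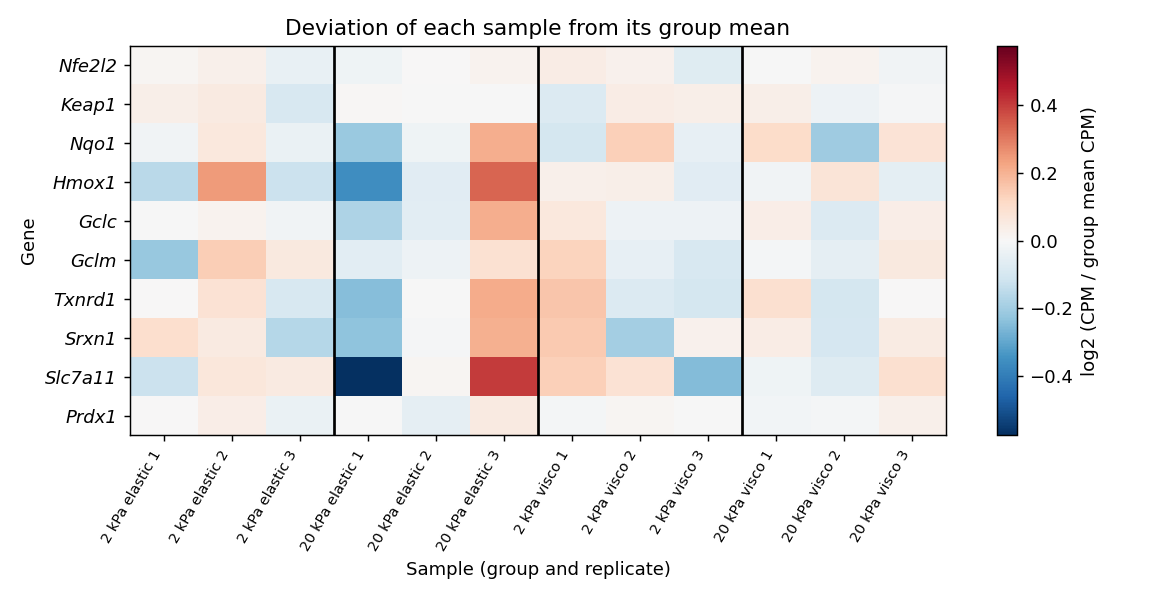
Log2 ratio of the CPM in each sample (horizontal axis) to the mean of its group, for each gene (vertical axis), with red above and blue below the mean. On 20-kPa elastic gels replicate 1 is below the mean and replicate 3 above it for most genes, with median values of −0.20 and 0.21.

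A further 76 antioxidant and related genes, grouped by role into 8 lists, were read from the same fit, and all 76 were tested. On viscoelastic compared with elastic gels, 16 were higher and 7 lower at 2 kPa (30.3%), and 25 higher and 9 lower at 20 kPa (44.7%). From 2 to 20 kPa, 9 were higher and 8 lower on elastic gels (22.4%), and 1 was higher and none lower (1.32%) on viscoelastic ones. Over all tested genes the shares were 19.9%, 33.5%, 14.0% and 2.28% in this order. Of these genes, 1275 were higher and 1617 lower, 2527 and 2339, 991 and 1038, and 230 and 101. The counts by role given below are to be read beside these shares. The median log2 fold changes of the 76 genes were 0.080, 0.10, 0.030 and 0.051 in this order. Without 2-kPa elastic replicate 1, 13 genes were called at 2 kPa instead of 23, and 8 with stiffness on elastic gels instead of 17. Calls over all tested genes were also fewer without this sample, 1545 instead of 2892 and 1167 instead of 2029.

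Among the 12 partners and regulators of NRF2, Maff and Rbx1 rose and Nfe2l1, Nfe2l3 and Bach1 fell on viscoelastic gels at 2 kPa, and Rbx1, Sqstm1 and Btrc rose and Nfe2l3, Bach1 and Maff fell at 20 kPa. From 2 to 20 kPa on elastic gels, Maff rose and Nfe2l1, Nfe2l3 and Bach1 fell. Bach1, a repressor that competes for the same elements, was lower on viscoelastic gels at 2 kPa (log2 fold change −0.27 ± 0.058 SE, edgeR adjusted p = 0.00499) and at 20 kPa (−0.17 ± 0.059, edgeR adjusted p = 0.0347). It was also lower on 20-kPa than on 2-kPa elastic gels (−0.21 ± 0.058, edgeR adjusted p = 0.0277). Maff, a small MAF protein, was at 7.67, 7.91 and 8.59 CPM on 2-kPa elastic gels and at 13.9, 15.1 and 17.6 CPM on 20-kPa elastic gels. It rose with stiffness on elastic gels by 0.94 ± 0.10 on the log2 scale (edgeR adjusted p = 6.6e-05) and with viscoelasticity at 2 kPa by 0.70 ± 0.10 (edgeR adjusted p = 0.000509), and fell with viscoelasticity at 20 kPa by 0.29 (edgeR adjusted p = 0.0356). Nfe2l3, a related factor, fell on viscoelastic gels at 2 kPa (−0.87, edgeR adjusted p = 0.0012) and at 20 kPa (−0.82, edgeR adjusted p = 0.00159).

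Of 5 superoxide dismutase and catalase genes, Sod1, Sod2 and Cat rose at 2 kPa and Sod1 and Cat at 20 kPa, while Sod3 fell there. Cat, the catalase gene, had a log2 fold change of 0.31 at 2 kPa (edgeR adjusted p = 0.00209). Sod1, the cytosolic superoxide dismutase, was at 109, 105 and 105 CPM on 20-kPa elastic gels and at 148, 152 and 154 CPM on 20-kPa viscoelastic gels. These groups stood far apart, with a log2 fold change of 0.51 ± 0.057 (SE, edgeR adjusted p = 8.7e-05). Sod1 was also the gene called between the viscoelastic gels (0.26 ± 0.057, edgeR adjusted p = 0.0342), a call that ended with the replicate block, with only the groups compared and in 6 of the 12 fits that each left out 1 sample, where none of the 76 genes was called. Of 5 glutathione peroxidases, Gpx3 and Gpx8 rose at both stiffnesses and Gpx4 at 20 kPa, and none fell. Among all tested genes, 19.9% were called at 2 kPa and 33.5% at 20 kPa. Gpx3, a secreted peroxidase, rose by 0.63 ± 0.14 at 2 kPa (edgeR adjusted p = 0.00736) and by 0.73 ± 0.14 at 20 kPa (edgeR adjusted p = 0.00174).

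In the thioredoxin and peroxiredoxin list of 13 genes, 3 rose (Txn1, Prdx5 and Sesn2) and 2 fell (Prdx6 and Sesn1) at 2 kPa, and 4 rose (Prdx2, Prdx5, Prdx6 and Sesn1) at 20 kPa. Prdx5 rose in both comparisons (0.37 ± 0.055 and 0.19 ± 0.054, edgeR adjusted p = 0.000473 and 0.0155). Sesn1, a stress-induced sestrin, fell at 2 kPa (−0.21, edgeR adjusted p = 0.0294) and rose at 20 kPa (0.34, edgeR adjusted p = 0.00101). The interaction of Sesn1 passed as well (0.55 ± 0.088, edgeR adjusted p = 0.00162). With stiffness on elastic gels Txn1 rose and Prdx6 and Sesn1 fell, Sesn1 by 0.43 (edgeR adjusted p = 0.000495). In glutathione synthesis and recycling, 1 of 10 genes, Glrx3, rose at 2 kPa (0.26, edgeR adjusted p = 0.00535), and at 20 kPa Ggt5, Glrx2 and Glrx3 rose and Ggct and Glrx fell, Glrx (−0.48, edgeR adjusted p = 0.0017), a glutaredoxin gene, with the largest value. On elastic gels Gsr rose with stiffness and Oplah, the oxoprolinase of the glutathione cycle, fell (−0.36, edgeR adjusted p = 0.0136). In NADPH supply, G6pdx and Idh1 of 9 genes rose at 2 kPa and Idh1 and Idh2 at 20 kPa, and none fell. G6pdx, the entry enzyme of the pentose phosphate pathway, rose at 2 kPa (0.32, edgeR adjusted p = 0.00104) and with stiffness on elastic gels (0.18, edgeR adjusted p = 0.031). Idh1, a cytosolic source of NADPH, rose at 20 kPa (0.35, edgeR adjusted p = 0.00121).

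Of 9 heme and iron genes, Slc40a1, the iron exporter ferroportin, was at 48.4, 35.3 and 32.3 CPM on 2-kPa elastic gels and at 16.8, 17.7 and 15.2 CPM on 2-kPa viscoelastic gels. It fell without overlap by 1.22 ± 0.20 on the log2 scale (edgeR adjusted p = 0.00094), and by 1.02 ± 0.20 from 2 to 20 kPa on elastic gels (edgeR adjusted p = 0.00371). Both falls are measured from the same 2-kPa elastic samples. Slc48a1, a heme transporter, rose at 2 kPa, and Blvrb, Fth1 and Hmox2 rose at 20 kPa. Fth1, the ferritin heavy chain that stores iron, rose on viscoelastic gels at 20 kPa (0.45 ± 0.13, edgeR adjusted p = 0.0169). Of 13 genes of quinone, aldehyde and xenobiotic metabolism, Esd and Ptgr1 rose and Abcc4 fell at 2 kPa. At 20 kPa Cbr1, Aox1, Adh7, Aldh3a1 and Ptgr1 rose and Ugdh, Abcc1 and Osgin1 fell. With stiffness on elastic gels Nqo2, Ugdh, Esd, Ptgr1 and Abcc1 rose and Aldh3a1 fell. Ptgr1, a prostaglandin reductase, rose at 2 kPa (0.46, edgeR adjusted p = 0.000752). Aldh3a1, an aldehyde dehydrogenase measured at only 1.14 to 2.73 CPM, rose at 20 kPa (0.92 ± 0.21, edgeR adjusted p = 0.00375) and fell with stiffness on elastic gels (−0.74, edgeR adjusted p = 0.0292).

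**Figure D4:**
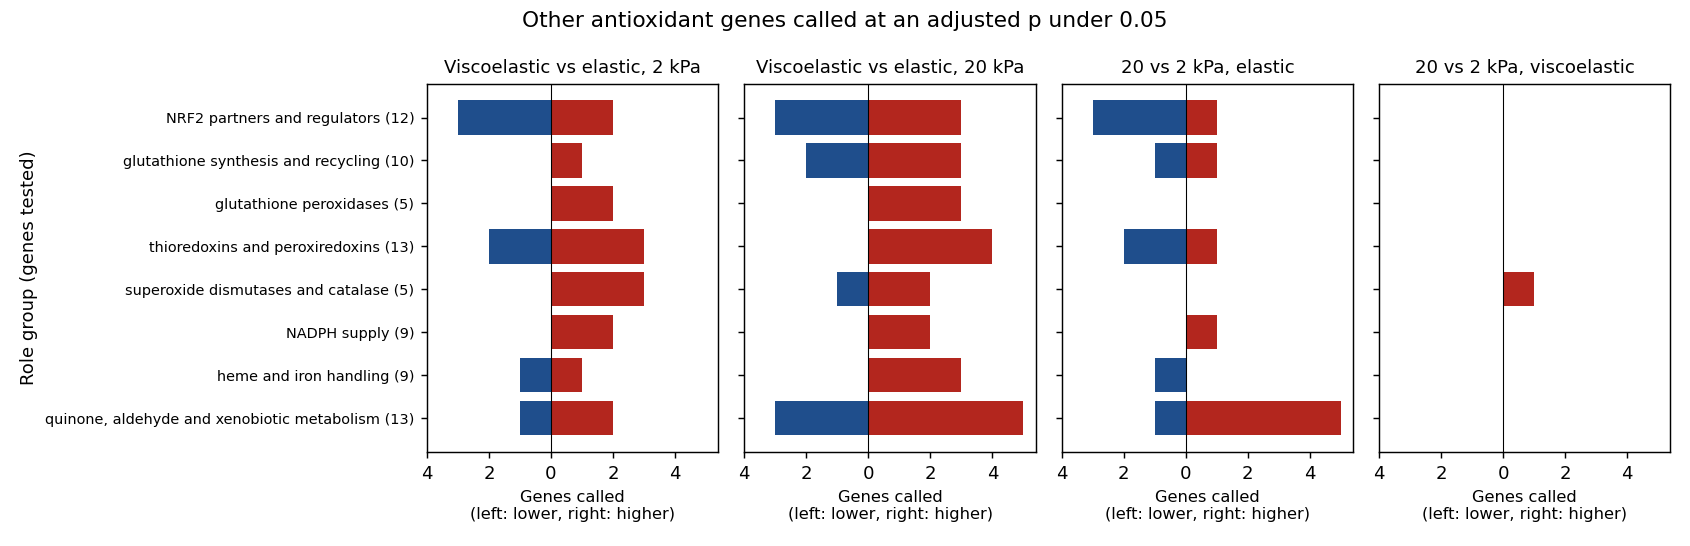
Number of genes called (horizontal axis, lower to the left in blue and higher to the right in red) in each of 8 role groups (vertical axis, genes tested in brackets), for the 4 comparisons of gel groups. In all there are 16 higher and 7 lower, 25 and 9, 9 and 8, and 1 and 0 from left to right. Among all tested genes, 19.9%, 33.5%, 14.0% and 2.28% were called in this order.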

How the data were processed

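RNA-seq was performed on 12 samples of mouse ear fibroblasts. Per the labels and the methods, the authors used Trimmomatic for trimming, STAR for alignment to mm10 and featureCounts with a GENCODE annotation for counting. They deposited raw, unnormalized counts of reads per gene. The strand setting, the handling of multiply mapped reads and the annotation release are not given in the sources used here. Columns were matched to samples by name.

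Tests used R 4.3.3 with edgeR 4.0.16. After filterByExpr (minimum count 10, minimum total 15) 14542 genes were left. After TMM scaling, the 12 samples entered 1 quasi-likelihood fit, with a coefficient for each group, two-sided, with Benjamini-Hochberg adjustment over all tested genes and calls at an adjusted p under 0.05. The common biological coefficient of variation was 7.50%. The SE was the absolute log2 fold change divided by the square root of F. Levels per kilobase used merged exon lengths. Scripts were tested on simulated counts. Replicate pairs differed by 11.2 to 55.5 times the counting variance, so no sample was a copy.

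The 10 genes and the role lists were chosen with earlier results of these data known. All 10 are named, and from each role list the called gene with the largest absolute log2 fold change in each pairwise comparison. Counts of 5 or fewer are given with gene names. Bach1 and the further comparisons of Maff, Sod1, Prdx5 and Sesn1 were added after their values were seen. 1 cell type marker is not reported here. Alternatives were DESeq2 size factors, total counts, every gene with a count, DESeq2 1.42.0's Wald test, only the groups compared, a replicate block, and each sample left out.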

Additional observations from a re-analysis of the deposited data

Results flagged for a closer look

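Txnrd1, the cytosolic thioredoxin reductase, differed between the stiffnesses in its response to viscoelasticity, by a test of the difference itself. The effect at 20 kPa minus that at 2 kPa was −0.50 on the log2 scale (edgeR adjusted p = 0.0486). Over 17 alternatives the adjusted p ran from 0.00279 to 0.113, and the call held in 7 of them. In the 12 fits that each left out 1 sample the difference lay between −0.63 and −0.38. With 3 samples in a group, no test for outlying samples was run. On 20-kPa elastic gels, Txnrd1 deviated from its group mean by −0.24 on the log2 scale in replicate 1 and by 0.21 in replicate 3.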

How the results depend on the processing

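The numbers of the 10 genes called kept within 1.5 times of the reported ones under DESeq2's size factors, total counts, every gene tested, DESeq2's Wald test, the groups compared alone and the replicate block, except as follows. With stiffness on elastic gels 5 were called with total counts alone and with DESeq2, instead of 3. Over all tested genes these 2 settings gave 2011 and 2306 calls, instead of 2029. For the interaction 2 were called with DESeq2's size factors, total counts or DESeq2, 3 with every gene tested and 0 with the replicate block, instead of 1. Over all tested genes the calls were 1088, 1070, 1389, 1450 (of 23149 tested) and 845 in this order, instead of 1100. Of the 76 further genes, 2 (DESeq2's size factors), 4 (every gene tested), 7 (DESeq2), 0 (only the groups compared) and 0 (replicate block) were called between viscoelastic gels, instead of 1. Over all tested genes the calls were 324, 653 (of 23149 tested), 769, 38 and 154 in this order, instead of 331. With 1 sample left out at a time, the 10 genes gave 2 to 5, 1 to 4, 1 to 5 and 0 calls in the pairs of groups as ordered in the report and 0 to 3 for the interaction, and the 76 genes gave 13 to 26 for viscoelasticity at 2 kPa, 8 to 18 and 0 to 3 for stiffness on elastic and viscoelastic gels, and 5 to 10 for the interaction. Over all tested genes these fits gave 1545 to 3085, 3177 to 5381, 1063 to 2369 and 9 to 351 calls in the pairs of groups. They gave 670 to 1182 for the interaction. The causes were not tested. Signs turned only in genes that were not called: with total counts alone for Gclc at 2 kPa (0.0042) and Nfe2l2 at 20 kPa (0.010), and with a sample left out in these log2 ranges: viscoelasticity at 2 kPa, Txnrd1 −0.13 to 0.0054 and Srxn1 −0.14 to 0.027, at 20 kPa, Gclm −0.0046 to 0.088, their mean, Nqo1 −0.096 to 0.015, stiffness on elastic gels, Keap1 −0.0096 to 0.061 and Srxn1 −0.011 to 0.22, on viscoelastic gels, Keap1 −0.0085 to 0.050, Gclm −0.066 to 0.047, Txnrd1 −0.11 to 0.024 and Srxn1 −0.051 to 0.12, interaction, Keap1 −0.042 to 0.039, Srxn1 −0.19 to 0.049 and Slc7a11 −0.36 to 0.13. Deviations of samples with the same replicate number correlated between −0.20 and 0.31. Samples with different numbers were not compared, so these values cannot tell whether the numbers pair the samples. With the replicate numbers as a block the interaction of Txnrd1 was −0.49 (edgeR adjusted p = 0.0828), and no other call of the 10 genes ended. Slc7a11, with 60 to 192 reads a sample, had the widest intervals.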
